A study of Mus musculus with 4 samples.

Results

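Rnf186 encodes ring finger protein 186, a membrane-bound E3 ubiquitin ligase of epithelial cells, and its transcript was followed in organoids of the mouse small intestine. It is 1 of the 30205 genes that the deposited transcript values cover. The gene was chosen by its estimated counts and TPM (a transcript level per length and library size), which differed between GW3965 and DMSO cultures, so its treatment difference is described here without a test.

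The cultures were grown in Matrigel from small-intestinal crypts of 2 male C57BL/6J mice labelled as 9 weeks old. Organoids of the GW3965 group had 2 µM GW3965 in the overlaying medium for 6 h, and organoids of the DMSO group had the vehicle DMSO for the same time. GW3965 activates the liver X receptors (LXR), nuclear receptors that sense oxidised sterols. The library titles carry M1 or M2, read here as mouse 1 and mouse 2. On that reading each mouse gave 1 culture per treatment, so each group holds 2 libraries and the mice form 2 pairs. The design asks what LXR activation does to epithelial transcripts. No allele or transgene is labelled in either group, and the labels name no second culture of a mouse. The extraction text speaks of colon tissue; the tissue label, small intestine organoid, was followed.

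A ring finger E3 ligase holds a ubiquitin-loaded E2 enzyme and a substrate close to each other, so that ubiquitin passes to the substrate, which is then degraded or changes its place or partners. RNF186 is known mainly from the gut epithelium, and variants of the human gene are associated with ulcerative colitis. Work on the protein has linked it to stress of the endoplasmic reticulum (ER), to autophagy and to the tight junction protein occludin.

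On GRCm38 (mm10; GENCODE M21 annotation), Rnf186 (ENSMUSG00000070661.6) lies on the plus strand of chromosome 4, from 138967112 to 138968360. It is a single exon of 1249 bases, with 39 bases of 5′ UTR, a coding sequence of 280 codons (138967151 to 138967990) and a 3′ UTR of 370 bases including the stop codon. No other annotated gene overlaps it, and 0 of its 1219 different 31-mers occur in another annotated gene on either strand. Its 1 transcript had whole-number estimated counts in all 4 libraries, so no reads had to be divided between Rnf186 and another gene or isoform.

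The 243 bases before the annotated start are shown because the treatment acts through nuclear receptors that bind DNA. The sequence is from RefSeq on GRCm38.p6, plus strand, at chr4:138966869-138967111, and capitals mark the closest match to the LXR motif.
Rnf186 upstream: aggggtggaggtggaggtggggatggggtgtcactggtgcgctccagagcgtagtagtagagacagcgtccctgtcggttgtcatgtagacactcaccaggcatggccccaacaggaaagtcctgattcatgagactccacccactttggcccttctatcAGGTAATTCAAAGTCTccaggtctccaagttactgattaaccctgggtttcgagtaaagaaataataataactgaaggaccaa
The run in capitals, AGGTAATTCAAAGTCT, starts 83 bases before the gene. It differs at 3 letters (C5A, G12A and A16T, counted from the 5′ end of the motif, motif letter first) from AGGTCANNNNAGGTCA, the direct repeat with 4 bases between that LXR is known to bind. A match as loose as that was present in the same window of 18% of 32851 promoters. The hexamer AGGTCA itself was absent on both strands (13.7% of promoters hold it), as were TATAAA (12.2%), AGATAA (9.8%) and the HNF4 motif CAAAGTCCA with up to 1 letter changed (6.86%). The motifs were picked after the sequence had been seen, both strands were searched, and a match describes letters only.

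The 4 libraries held 16572359 to 19486547 estimated counts. Mitochondrial transcripts took 14.02% of the gene counts of the GW3965 library of mouse 1 and 8.74% in that of mouse 2, against 7.6% and 9.43% in the DMSO libraries of mouse 1 and mouse 2. A set of 10 general epithelial genes (Epcam, Cdh1, 3 keratins of simple epithelium, Vil1, Cldn7, Cldn3, Elf3 and Krt20) summed to 24882 and 35796 CPM with GW3965 in mouse 1 and mouse 2, against 32734 and 34287 CPM with DMSO. A set of 10 immune marker genes summed to 187 and 73 CPM with GW3965, against 94 and 89 CPM with DMSO, in the same order. CPM are counts scaled to library size with TMM factors between libraries. Of 9 mesenchymal and endothelial genes, Col1a2, Col3a1, Dcn, Pdgfra and Cdh5 had 1 to 6 counts in each library. The 4 tested ones, Pecam1, Vim, Col1a1 and Acta2, summed to 44 and 38 CPM with GW3965, against 32 and 36 CPM with DMSO, in the same order. The endothelial and immune gene Pecam1 had 423 and 324 counts with GW3965, against 260 and 270 counts with DMSO, and Vim had 255 to 360 counts. The immune gene Gzma had 2036 and 759 counts with GW3965 in mouse 1 and mouse 2, against 1187 and 988 counts with DMSO. These counts are of the order of those of Rnf186 itself, given below. Epithelial genes therefore led in all 4 libraries, with genes of other cell types beside them, whose part in the Rnf186 values was not tested.

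Rnf186 was higher with GW3965 in both mice. It had 90.7 and 96.0 CPM in the GW3965 libraries of mouse 1 and mouse 2, against 36.3 and 48.8 CPM in the DMSO libraries. The estimated counts behind these values were 1489 and 1829 with GW3965, against 707 and 920 with DMSO. Both GW3965 libraries stood above both DMSO libraries, and the lowest GW3965 value exceeded the highest DMSO value by 0.89 on the log2 scale. The means were 93.3 ± 3.71 CPM with GW3965 and 42.6 ± 8.82 CPM with DMSO (SD, n = 2 each), 2.19-fold apart.

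**Figure D1:**
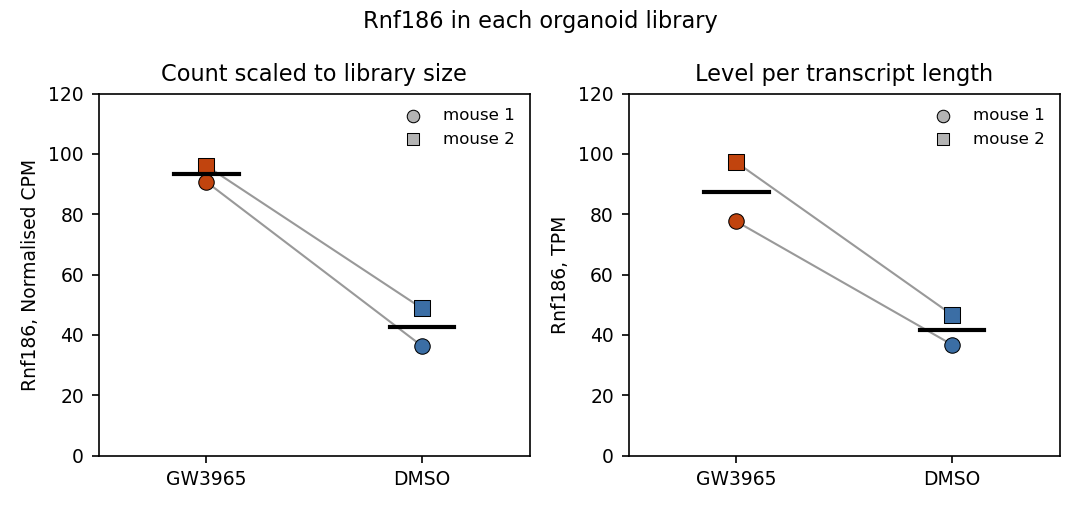
Rnf186 in each library as normalised CPM (left) and TPM (right), with GW3965 and DMSO on the x axis. Circles are mouse 1, squares mouse 2, grey lines join the cultures of a mouse and black bars are the means of 2 libraries; in both units the 2 GW3965 points lie above the 2 DMSO points.

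From low to high, the libraries ran DMSO mouse 1, DMSO mouse 2, GW3965 mouse 1 and GW3965 mouse 2. The 95% exact Poisson intervals of the 2 GW3965 libraries overlapped (86.2 to 95.5 CPM in mouse 1 and 91.6 to 100.5 CPM in mouse 2). Those of the 2 DMSO libraries did not (33.7 to 39.1 CPM and 45.7 to 52.0 CPM). These intervals cover the counting error of 1 library only and hold no spread between cultures. The reads carry no molecular identifiers, so copies of the same molecule are not told apart.

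Per transcript length, Rnf186 had 77.6 and 97.2 TPM with GW3965 in mouse 1 and mouse 2, against 36.8 and 46.7 TPM with DMSO. In the GW3965 libraries it ranked 1373 of 18503 and 1270 of 18312 genes with a TPM above 0, within the top 7.4% and 6.9%. In the DMSO libraries it ranked 3137 of 18235 and 2451 of 18378, within the top 17.2% and 13.3%. It was therefore among the more abundant transcripts already without the agonist.

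Within a mouse, the log2 difference of GW3965 minus DMSO in normalised CPM was 1.32 in mouse 1 (2.5-fold) and 0.98 in mouse 2 (1.97-fold), a mean of 1.15 ± 0.24 (SD of 2 mice). In TPM the folds were 2.1 and 2.08. Fitted over all genes, the log2 fold change was 1.13. In the authors' deposited table of log2 CPM, Rnf186 was at 6.55 and 6.63 with GW3965 in mouse 1 and mouse 2, against 5.72 and 5.62 with DMSO, which is a difference of 0.83 in mouse 1 and 1.00 in mouse 2.

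The GW3965 library of mouse 1 had the lowest epithelial sum and the highest immune sum, so Rnf186 was also set against the summed count of the 10 epithelial genes. It had 36.5 and 26.8 counts per 10000 epithelial counts with GW3965 in mouse 1 and mouse 2, against 11.1 and 14.2 with DMSO. On this scale GW3965 minus DMSO was 1.72 (log2) for mouse 1 and 0.91 for mouse 2. The keratin gene Krt8 was the largest member of the sum. It had 11229 and 15948 CPM with GW3965 in mouse 1 and mouse 2, against 15367 and 15052 CPM with DMSO. The scale thus leans on keratin transcripts, and whether it follows the epithelial content of a library was not tested. The immune sum of mouse 1 was 187 CPM with GW3965 and 94 CPM with DMSO, beside a 2.5-fold Rnf186 difference in CPM. That of mouse 2 was 73 CPM with GW3965 and 89 CPM with DMSO, beside a 1.97-fold difference. Whether immune cells had a part in either was not tested. In bulk RNA, a change in the number of cells that express Rnf186 cannot be told apart from a change of its transcript per cell.

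Of the 13594 genes expressed enough to be tested, 1260 (9.27%) had both GW3965 libraries above both DMSO libraries, and 27 (0.199%), Rnf186 included, had log2 differences at least as large as those of Rnf186 in both mice. Of the other 26, 11 had a mean log2 CPM of at least 1. They were the sterol exporter genes Abca1, Abcg1, Abcg5 and Abcg8, the lipogenic regulator gene Srebf1, the desaturase genes Scd1 and Scd2, Mylip, Ppara, the cytochrome P450 gene Cyp2w1 and Gm10925, all named after their values were seen. Low counts spread more, so Rnf186 was also set against 2011 genes within 0.5 log2 CPM of its own mean level. Among these, Abcg8 alone of the other genes was as high in both mice (1.83 in mouse 1 and 2.16 in mouse 2). The SD of the log2 difference over these genes was 0.34 in mouse 1 and 0.17 in mouse 2. These ranks come from the contrast that chose the gene and support nothing about it.

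**Figure D2:**
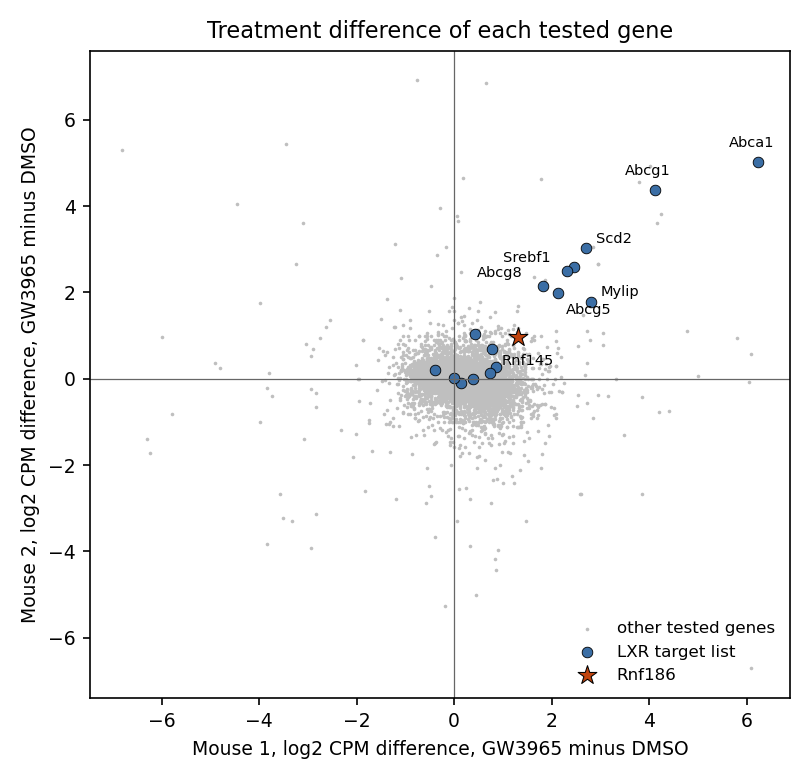
Log2 CPM difference (prior count of 2) of GW3965 minus DMSO in mouse 1 (x axis) and mouse 2 (y axis) for each of 13594 tested genes (grey), the 16 tested genes of the LXR target list (blue) and Rnf186 (star). Rnf186 lies at 1.32 and 0.97, between the bulk of genes around 0 and the sterol exporters at the upper right.

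In edgeR's quasi-likelihood test of GW3965 against DMSO, 8 of 13594 genes (0.0588%) were past a Benjamini-Hochberg adjusted p of 0.05, all of them higher with GW3965, and 141 (1.04%) had an unadjusted p under 0.05. A fit blocked on the mouse called 48 genes (0.353%). That fit has 1 residual degree of freedom and takes its spread from genes of similar expression, not from each gene itself. No call or p is given for Rnf186, since this contrast chose it. With 8 calls in all, 0 called in a gene list is near the share over all genes and says little about that list. Of 18 listed LXR targets, 16 were tested and 6 passed, each higher with GW3965. By fitted value 15 of the 16 were higher with GW3965, as were 6802 of the 13594 genes tested. In both mice 12 of the 16 were positive, against 16.3% of all genes tested. The list was chosen with earlier results of these data known. The median log2 fold change of the tested targets was 1.38, against 0.00 over all genes tested.

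The mouse is a contrast that the choice of Rnf186 did not use. Rnf186 averaged 72.4 ± 33.4 CPM in mouse 2 and 63.5 ± 38.5 CPM in mouse 1 (SD over the 2 treatments). With treatment as a covariate, the log2 fold change of mouse 2 over mouse 1 was 0.25 ± 0.24 (standard error; edgeR's quasi-likelihood test, Benjamini-Hochberg adjusted p = 0.996), while 93 of 13594 genes (0.684%) passed. The difference of mouse 2 minus mouse 1 was 0.08 on the log2 scale among GW3965 libraries and 0.43 among DMSO libraries. This fit has 1 residual degree of freedom and takes its spread from genes of similar expression, not from Rnf186 itself.

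Among genes of the Rnf series (symbols of Rnf and a number), 79 were in the files and 65 were tested. Rnf186 had a mean of 87.4 ± 13.9 TPM with GW3965 and 41.8 ± 7.03 TPM with DMSO (SD, n = 2 each), the third highest level of the 79 with GW3965 and rank 10 with DMSO. Rnf10 (129 TPM with GW3965 and 145 TPM with DMSO) and Rnf7 (102 and 92.8 TPM) were above it in both groups. Rnf7 encodes the small ring protein of a cullin ligase. The fitted log2 fold changes of the other 64 tested genes ran from -0.34 (Rnf26) to 0.74 (Rnf145) with a median of -0.04, and 11 of them were positive in both mice, as were 16.3% of all genes tested. None of the 64 passed in edgeR over all genes or in DESeq2, and 1, Rnf145, had an unadjusted p under 0.05.

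**Figure D3:**
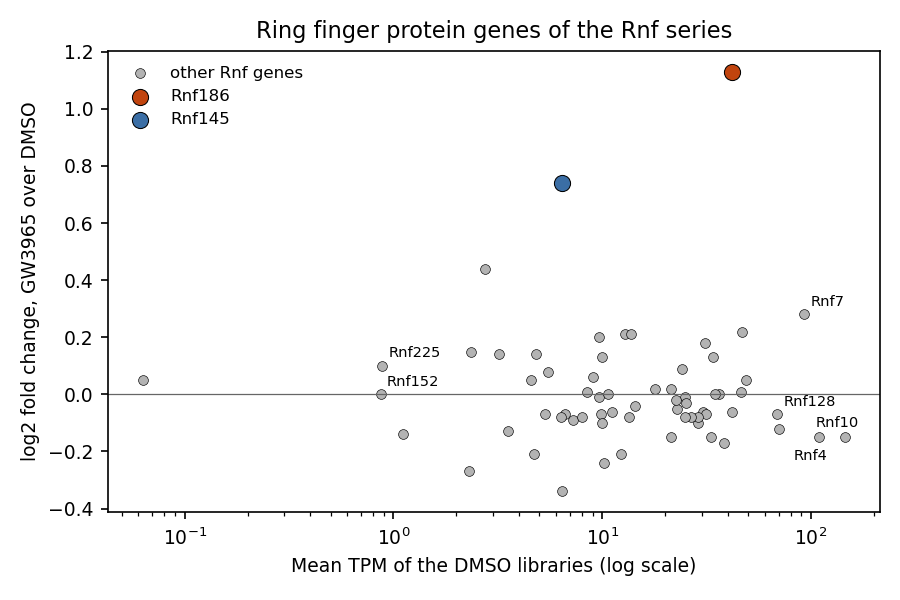
Fitted log2 fold change of GW3965 over DMSO (y axis) against the mean TPM of the 2 DMSO libraries (x axis, log scale) for the 65 tested Rnf genes. Rnf186 is at 1.13 and Rnf145 at 0.74, with the other points between -0.34 and 0.44.

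Rnf145 and Mylip are ligase genes already known as LXR targets. RNF145 is an ER membrane ligase that acts on sterol sensing, and MYLIP (also called IDOL) ubiquitinates the LDL receptor. Rnf145 had 31.7 and 35.4 CPM with GW3965 in mouse 1 and mouse 2, against 18.6 and 21.7 CPM with DMSO. Its groups did not overlap, and its log2 fold change was 0.74 ± 0.19 (edgeR, adjusted p = 0.9998). Mylip had 7.8 and 5.51 CPM with GW3965, against 1.03 and 1.54 CPM with DMSO. Its groups did not overlap either, at 2.37 ± 0.36 (edgeR, adjusted p = 0.0769). Over all genes tested, 9.27% had both GW3965 libraries above both DMSO libraries. In the edgeR fit blocked on the mouse the adjusted p was 8.55e-07 for Mylip and 0.298 for Rnf145. That fit takes its spread from other genes and not from Mylip or Rnf145 itself. DESeq2 called Mylip and did not call Rnf145. Per length, all 4 libraries held more Rnf186 than either, with 2.47 and 2.07 TPM for Mylip and 8.86 and 12.0 TPM for Rnf145 in the GW3965 libraries of mouse 1 and mouse 2.

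A list of other small ring proteins held 8 genes, of which Rnf223 and Rnf228 were not analysed here. RNF152 and RNF183 are, like RNF186, ring proteins with a membrane anchor. Rnf152 had 0.659 and 0.990 TPM with GW3965 in mouse 1 and mouse 2, against 0.810 and 0.929 TPM with DMSO. Rnf183 had 4.38 and 3.75 TPM with GW3965, against 5.11 and 4.28 TPM with DMSO. Rnf208 had 8.71 and 6.81 TPM with GW3965, against 11.8 and 8.52 TPM with DMSO, and Rnf225 stayed between 0.744 and 1.02 TPM. These levels were all below that of Rnf186 in the same library. Rnf182 had 0 counts in all 4 libraries, where 3 counts would be 0.155 to 0.183 CPM, and Rnf224 had 1 or 2 counts. None of the 4 tested genes passed in edgeR (0 also at an unadjusted p under 0.05 and in DESeq2), and their median log2 fold change was -0.10.

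Proteins that RNF186 has been reported to ubiquitinate or bind come next. These are occludin (Ocln) of tight junctions, the ER membrane fusion protein BNIP1, sestrin 2 (Sesn2), which senses leucine for mTORC1, the bacterial sensor NOD2, the receptor EPHB2 with its ligand ephrin B1 (Efnb1), the ER stress sensor ATF6 and the autophagosome protein LC3B (Map1lc3b). All 8 genes were tested and none passed (edgeR; 0 also at an unadjusted p under 0.05 and in DESeq2). Their median log2 fold change was -0.08 (mouse 1 -0.16, mouse 2 0.04), and Nod2 alone had the same sign in both mice.

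Ocln had 304 and 438 CPM with GW3965 in mouse 1 and mouse 2, against 347 and 427 CPM with DMSO (log2 fold change -0.06 ± 0.26). Ephb2 had 79.3 and 115 CPM with GW3965, against 116 and 111 CPM with DMSO (-0.23 ± 0.23). Atf6 had 40.5 and 67.3 CPM with GW3965, against 57.2 and 58.7 CPM with DMSO (-0.10 ± 0.24). In each of these genes the lowest of the 4 values was the GW3965 culture of mouse 1, and the groups overlapped. Nod2 was scarce, with 1.16 and 1.26 CPM with GW3965, against 1.23 and 1.48 CPM with DMSO. Map1lc3b had the largest positive value of the 8, 0.20 ± 0.20, with 0.41 in mouse 1 and -0.01 in mouse 2.

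**Figure D4:**
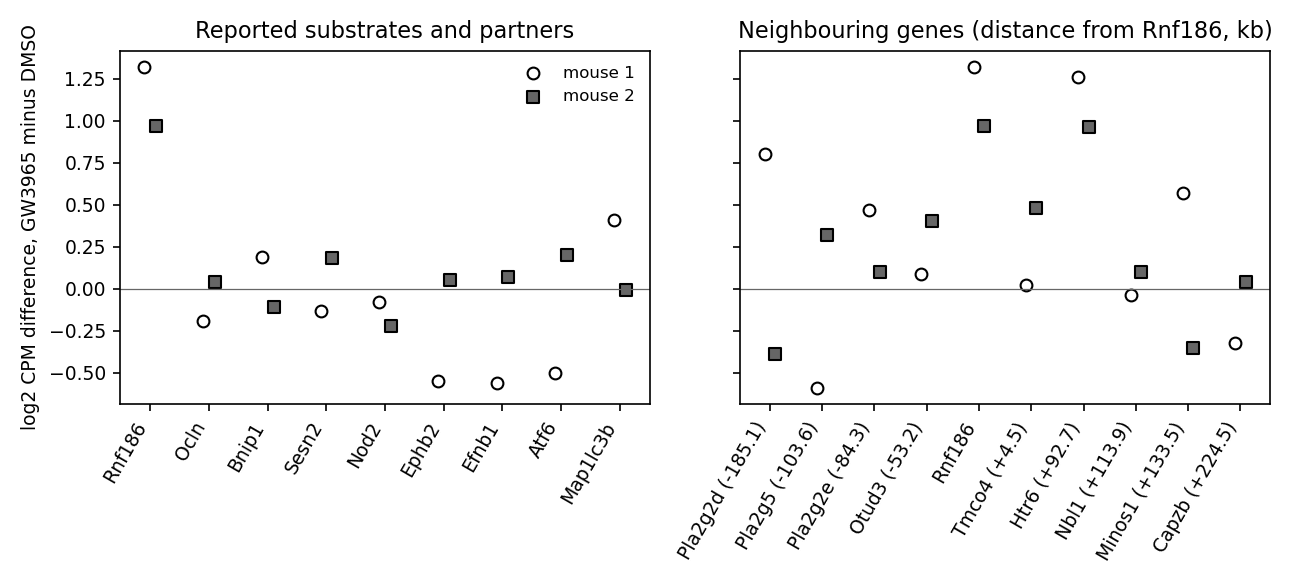
Log2 CPM difference (prior count of 2) of GW3965 minus DMSO in mouse 1 (circles) and mouse 2 (squares) for Rnf186 beside the 8 reported substrates and partners (left) and beside its tested neighbours, in order along the chromosome with their distance in kb (right). Rnf186 is at 1.32 and 0.97, while the 8 partner genes lie between -0.56 and 0.41 and Htr6 is at 1.26 and 0.96.

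Lists of the processes tied to RNF186 held no called gene, beside 0.0588% called over all genes tested. Of 22 ER stress genes 0 passed, with a median log2 fold change of 0.00 (mouse 1 -0.10, mouse 2 0.11). The ER chaperone gene Hspa5 averaged 684 CPM in each group, and Ddit3, the gene of a pro-apoptotic stress factor, had 0.18 ± 0.19. Of 16 tight junction genes 0 passed, with a median of -0.04, and the pore-forming claudin gene Cldn2 had -0.33 ± 0.25. Of 16 autophagy genes 0 passed, with a median of 0.04, and Ulk1, the gene of a kinase that starts autophagy, had 0.25 ± 0.20. Of 19 other membrane ring ligases 0 passed, with a median of -0.05. Rnf43 and Znrf3, which clear Wnt receptors from the surface, are in that list. In these 4 lists 0 genes had an unadjusted p under 0.05 in edgeR, beside 1.04% of all genes tested, and DESeq2 called 0.

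Rnf186 lies between Otud3 and Tmco4. Tmco4 starts 4.5 kb downstream on the same strand, and Otud3, a deubiquitinase gene, starts 53.2 kb upstream on the other strand. Tmco4 had 31.8 and 34.9 CPM with GW3965 in mouse 1 and mouse 2, against 31.4 and 25.0 CPM with DMSO (log2 fold change 0.24 ± 0.20). Otud3 had 28.2 and 39.1 CPM with GW3965, against 26.5 and 29.6 CPM with DMSO (0.27 ± 0.21). Neither passed in edgeR (adjusted p = 0.9998 for both). Both were positive in each mouse, as were 16.3% of all genes tested, but only slightly in mouse 1. The log2 differences in mouse 1 and mouse 2 were 0.02 and 0.48 for Tmco4, and 0.09 and 0.4 for Otud3.

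Of the 10 nearest protein-coding genes, 5 on each side, 9 were tested and none passed (edgeR; 0 also in DESeq2, 1 at an unadjusted p under 0.05). Htr6, a serotonin receptor gene 92.7 kb downstream, had 3.59 and 2.78 CPM with GW3965 in mouse 1 and mouse 2, against 1.44 and 1.38 CPM with DMSO. Its groups did not overlap, with GW3965 the higher, as in 9.27% of all genes tested. Its log2 fold change was 1.17 ± 0.37 (edgeR, unadjusted p = 0.0102, adjusted p = 0.9998), on 59 and 53 counts against 28 and 26. The phospholipase genes Pla2g2e, Pla2g5 and Pla2g2d upstream had 0.29 ± 0.36, -0.29 ± 0.47 and 0.23 ± 0.44. Gm13030 had 0 counts in all 4 libraries. Farther downstream, Nbl1 had 0.04 ± 0.25, Minos1 0.16 ± 0.27 and Capzb, the gene of an actin-capping subunit, -0.13 ± 0.24.

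The 5 genes most like Rnf186 over the 4 libraries were found by the root mean square difference of log2 CPM after each gene was centred on its mean, among 11487 other genes with a mean log2 CPM of at least 1. They were Zc3h11a (ENSMUSG00000102976.6, 0.159), Cd247 (0.172), Utp14b (0.178), H2-Q10 (0.178) and Rnf145 (0.220), against a median of 0.62. Utp14b had 79.5 and 98.1 CPM with GW3965 in mouse 1 and mouse 2, against 44.5 and 46.8 CPM with DMSO. H2-Q10, a non-classical MHC gene, had 32.8 and 29.4 CPM with GW3965, against 12.7 and 21.2 CPM with DMSO. Cd247, the T-cell receptor zeta chain gene, had only 25 to 54 counts in a library. Utp14b shares its locus with Acsl3, and 2 gene entries of the annotation carry the name Zc3h11a, so their counts are uncertain. The measure uses the treatment difference itself, on 4 libraries, and is a description.

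Among regulators of the gut epithelium, 22 transcription factor genes were tested, including Hnf4a, Cdx2, Nr1h2 and Nr1h3, and 0 passed (edgeR; 0 also at an unadjusted p under 0.05 and in DESeq2). Their median log2 fold change was -0.12 (mouse 1 -0.42, mouse 2 0.08). Of 18 genes near human inflammatory bowel disease loci 16 were tested and 0 passed, with a median of -0.08 (0 at an unadjusted p under 0.05 and 0 in DESeq2). Otud3 and Tmco4 are in that list. Fut2, a fucosyltransferase gene, had the smallest p of that list, at 0.52 ± 0.41.

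Markers of the cell types that could carry Rnf186 did not pass either, beside the same 0.0588% over all genes tested. Of 10 enterocyte genes 0 passed, with a median log2 fold change of 0.12 (mouse 1 0.0, mouse 2 0.06). By fitted value 6 of the 10 were higher with GW3965, as were 6802 of the 13594 genes tested. Apoa1, which encodes an apolipoprotein of enterocytes, had the smallest p and the highest value of that list. It had 636 and 965 CPM with GW3965 in mouse 1 and mouse 2, against 356 and 764 CPM with DMSO. The lowest value of the list was that of Slc5a1, -0.21 ± 0.31. Of 7 goblet genes 0 passed, with a median of 0.21 (mouse 1 0.53, mouse 2 -0.07). The Paneth (6 tested), enteroendocrine (6), tuft (4), stem (6) and proliferation (12) lists had medians of 0.09, 0.04, -0.01, -0.12 and -0.16, with 0 called. Immune genes had a median of 0.45 (mouse 1 0.94, mouse 2 -0.18), and 0 of 10 passed. The 10 general epithelial genes had a median of -0.10 with 0 called, and the 4 tested mesenchymal and endothelial genes a median of 0.22 with 0 called. Of these lists, the stem list (Ascl2) and the mesenchymal and endothelial list (Pecam1) each had 1 gene with an unadjusted p under 0.05, the others had 0, and DESeq2 called 0 in all of them. The part of cell makeup in the Rnf186 difference was not tested.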

How the data were processed

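RNA of 4 organoid libraries (2 with GW3965, 2 with DMSO) was made into poly-A libraries with a stranded kit and read as single ends of 50 bp, per the labels' protocols. Per transcript, the authors deposited estimated counts and TPM from kallisto, and a table of the same counts rounded to whole numbers; kallisto, CASAVA 1.7 and mm10 are named in the submitters' processing notes. The authors also deposited log2 CPM for 8524 gene symbols, with filter and scaling not given in the sources used here. Transcripts were matched to GENCODE M21 (97.54% of 88198), and estimated counts were summed per gene and rounded. Unmatched transcripts held 0.7 to 0.88% of a library and were left out.

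Tests used edgeR 4.0.16 (R 4.3.3) after filterByExpr and TMM scaling, with glmQLFit, glmQLFTest and an adjusted p under 0.05; standard errors derive from the F statistic, and log2 CPM per library use a prior count of 2. TPM were compared as log2(TPM + 0.1). Libraries with the same number in their titles (M1 or M2) were read as from 1 mouse, and a blocked fit was run beside the unblocked one. Deviations of same-mouse libraries correlated at 0.073. All pairs of libraries differed by more than sampling noise (chi-square over its degrees of freedom at least 9.89). Alternatives included DESeq2 1.42.0, other scalings and filters, and leaving out each library. The fits were tested on simulated data. Rnf186, the 20 gene lists and the naming rule (Rnf186, its partner and small ring lists, the LXR-induced ligases, up to 3 members of other lists with the smallest p, 5 neighbours on each side, 5 most alike genes) were chosen with earlier results of these data known. Other genes were named after their values were seen.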

Additional observations from a re-analysis of the deposited data

How the results depend on the processing

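The log2 fold change of Rnf186 for GW3965 over DMSO was positive under all 14 alternatives, from 0.92 (the authors' deposited log2 CPM) to 1.36. Each stayed within 1 SD (0.24, over the 2 mice) of the main 1.13. It was 1.15 with the mouse as a block, 1.06 from TPM and 1.32 per epithelial count. Leaving out 1 library gave 0.94 to 1.36. The alternatives reuse the libraries of the contrast that chose the gene, so their shared sign supports nothing about it. The mouse 2 over mouse 1 value stayed between 0.19 and 0.26 in its 7 alternatives and passed in none (adjusted p from 0.902 to 1). Leaving out a library there leaves no residual degree of freedom and gives the within-treatment differences printed above, so it was not run as a test.

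The count of called genes depended more on the setting. For GW3965 over DMSO, 8 genes became 14 without a filter on low counts, 20 in DESeq2, 48 with the mouse as a block and 38 to 104 when 1 library was left out (67 without the GW3965 library of mouse 1, 104 without that of mouse 2, 38 without DMSO of mouse 1, 54 without DMSO of mouse 2). Those last fits assume that the lone library varies like the others. For mouse 2 over mouse 1, 93 genes became 60 among protein-coding genes alone, 28 in DESeq2 and 10 with treatment left out of the model. The cause was not tested. In the lists the block added the calls of Mylip and Scd1 and changed no other. Of the 5 genes most like Rnf186, 5 were the same with DESeq2 size factors and 3 with TPM. At 707 to 1829 counts per library, the counting error of Rnf186 was small. Counting error holds no spread between cultures, so it cannot be used to judge the difference between groups.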

Other observations

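In the authors' deposited table of log2 CPM, mouse 2 minus mouse 1 (means over treatments) had an SD of 0.033 over 8461 genes, against 0.273 in log2 CPM computed here from the counts. The SD of GW3965 minus DMSO was 0.14 in that table and 0.181 here. For Rnf186, mouse 2 minus mouse 1 was -0.01 in the authors' deposited table and 0.25 here. A step that equalises the mice is not described in the sources used here, and the table was therefore not used for the mouse comparison.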
